A study of Homo sapiens with 6 samples.

Results

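The human α- and β-tubulin genes of HCT116 cells, a human colorectal carcinoma line, were followed after knockdown of the RNA-binding protein NONO. The 10 genes TUBA1A, TUBA1B, TUBA1C, TUBA4A, TUBB, TUBB2A, TUBB2B, TUBB3, TUBB4B and TUBB6 were taken by symbol from the 62492 genes listed for each library, and all 10 were among the 17000 genes with enough counts to be tested. RNA-seq had been made from poly(A) RNA of 3 siControl cultures and 3 siNONO cultures, 1 of each in Sets 1 to 3, which the series describes as biological replicates. All 6 cultures received an siRNA at 20 nM with the transfection reagent lipofectamine RNAiMAX. The siControl group was labelled as wild type and received a control siRNA, and the siNONO group was labelled as NONO knockdown and received an siRNA against NONO. There was no untransfected group and only 1 NONO duplex was used, so loss of NONO and any other effect of that duplex cannot be told apart. In RNA from whole cultures, fewer cells of one kind and less RNA per cell cannot be told apart either.

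An α-tubulin and a β-tubulin together form the dimer from which microtubules are built, and microtubules make the mitotic spindle, the cilium and the tracks for transport inside the cell. Each part of the dimer is encoded by several genes, called isotypes, whose proteins are very similar and which are used to different degrees by different tissues. Cells also sense their own tubulin: when free dimers accumulate, TTC5 recognises the first residues of a tubulin chain as it leaves the ribosome, methionine, arginine, glutamate and then cysteine in α-tubulin or isoleucine in β-tubulin, and the mRNA under translation is degraded.

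The start of the coding sequence is shown here because it encodes the residues that this feedback reads, in genes that changed in opposite directions. Coordinates are those of GRCh37 and the capitals mark codons 2 to 4. In the 4 α-tubulin genes the start codon ends the first coding exon, so each window spans an intron, of 1575 bases in TUBA1B and 4280 bases in TUBA1C. In the 6 β-tubulin genes the window lies in 1 exon.
TUBA1A, chr12:49580608-49582762, minus strand: atgCGTGAGTGC
TUBA1B, chr12:49523497-49525083, minus strand: atgCGTGAGTGC
TUBA1C, chr12:49658965-49663256, plus strand: atgCGTGAGTGC
TUBA4A, chr2:220116944-220118580, minus strand: atgCGTGAATGC
TUBB, chr6:30688284-30688295, plus strand: atgAGGGAAATC
TUBB4B, chr9:140135813-140135824, plus strand: atgAGGGAAATC
TUBB3, chr16:89989810-89989821, plus strand: atgAGGGAGATC
TUBB6, chr18:12308292-12308303, plus strand: atgAGGGAGATC
TUBB2A, chr6:3157686-3157697, minus strand: atgCGCGAGATC
TUBB2B, chr6:3227766-3227777, minus strand: atgCGTGAGATC
Every gene therefore carries the codons for arginine and glutamate, with a cysteine codon in the α-tubulin genes and an isoleucine codon in the β-tubulin genes. TUBA1A, TUBA1B and TUBA1C share the same 12 bases, and so do TUBB and TUBB4B, and TUBB3 and TUBB6.

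The knockdown was seen in every library. NONO was at 496, 495 and 516 CPM (counts scaled to the library total, with TMM factors) in siControl Sets 1 to 3 and at 89.5, 95.5 and 100.3 CPM in siNONO, a log2 fold change of -2.40 (SE 0.0337, edgeR adjusted p = 2.47e-13). Library totals ran from 21765393 to 32659002 estimated counts. All 8 epithelial markers examined were at 1 TPM (transcript level scaled for length and depth) or more in every library. Their summed levels, most of them from KRT8, KRT18 and KRT19, were 3078 to 3246 TPM in siControl and 2890 to 3209 TPM in siNONO. Single markers moved in opposite directions. ELF3 fell (log2 fold change -0.58, edgeR adjusted p = 3.03e-07), with mean TPM of 70.6 in siControl and 43.3 in siNONO. EPCAM, CLDN3 and KRT19 were called higher (0.32, 0.22 and 0.14, edgeR adjusted p = 3.52e-06, 0.0140 and 0.00731), and the other 4 did not pass. The CLDN3 groups overlapped in CPM and TPM and the KRT19 groups in TPM, while those of EPCAM were apart in both. Of 8 neuronal markers, SYT1 and MAP2 reached that level in every library and 5 did so in none, with STMN2, NEFL, NEFM and DCX at or near 0. The summed neuronal level was 49.4 to 53.5 TPM in siControl and 55.4 to 58.3 TPM in siNONO. Of 7 stromal, endothelial and immune markers only COL1A1 was at 1 TPM or more, and the sum was 17.1 to 19.9 TPM in siControl and 16.8 to 18.7 TPM in siNONO.

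The tubulin genes did not move as one. At an adjusted p of at most 0.05, TUBA1B, TUBA1C, TUBB, TUBB3 and TUBB4B were lower in siNONO, TUBA1A, TUBB2A and TUBB6 were higher, and TUBA4A and TUBB2B passed in neither direction. So 5 of 10 were lower, against 23.4% of all genes tested, and 3 of 10 were higher, against 23.2%, while 46.6% of all genes tested passed in one direction or the other. The median log2 fold change of the 10 genes was -0.17 beside -0.0048 for all genes tested. The 4 most abundant isotypes were all among those that fell, and the genes that rose were at 89.4 TPM or less in siControl. Here and below a change is edgeR's quasi-likelihood log2 fold change, siNONO against siControl with the Set as a block, and its p is Benjamini-Hochberg adjusted over the 17000 genes.

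**Figure D1:**
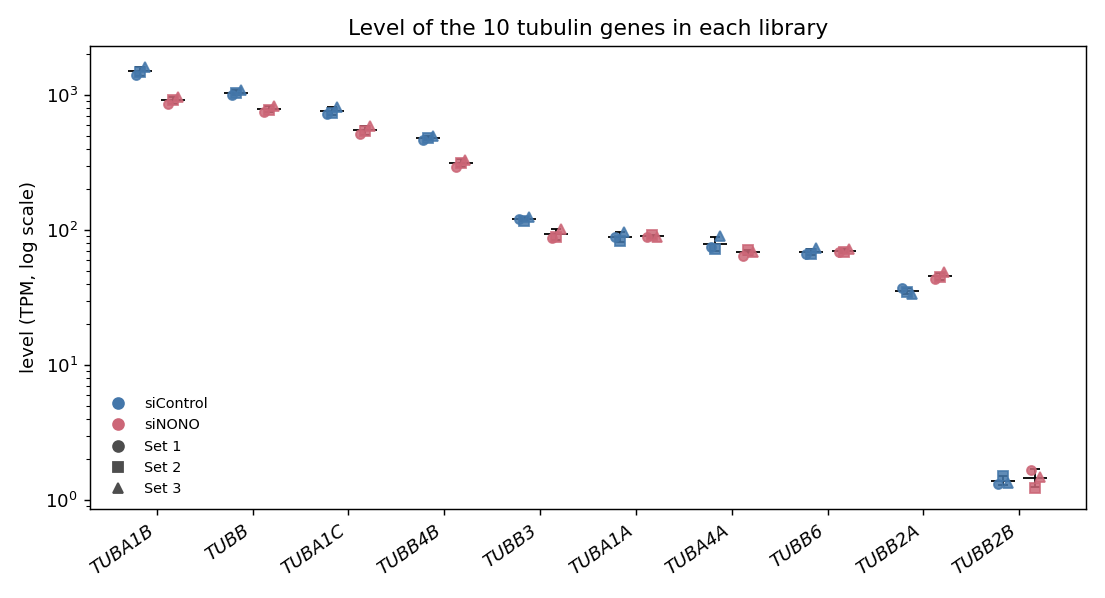
Level of each tubulin gene in TPM on a log scale, ordered by its siControl mean. Points are single libraries (circle, square and triangle for Sets 1, 2 and 3) and bars are the mean ± SD of 3 libraries. The 4 most abundant genes, TUBA1B, TUBB, TUBA1C and TUBB4B, are lower in all 3 siNONO libraries than in any siControl library, and TUBB2A is higher.

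TUBA1B and TUBA1C encode the general α-tubulins of dividing cells and lie with TUBA1A in a cluster on chromosome 12. TUBA1B (chr12:49521565-49525180, minus strand, 4 exons) was at 1387, 1504 and 1561 CPM in siControl and at 913, 990 and 1038 CPM in siNONO. All 3 siNONO values lay below the lowest siControl value, and the mean fell from 1484 ± 88.9 to 980 ± 62.8 CPM (SD, n = 3), or to 66.0% by the fit. The log2 fold change was -0.60 (SE 0.0259, edgeR adjusted p = 2.78e-09), with -0.60, -0.60 and -0.59 in Sets 1, 2 and 3. TUBA1C (chr12:49582519-49668383, plus strand, 4 exons) was at 490, 521 and 565 CPM in siControl and at 369, 413 and 420 CPM in siNONO. These groups did not overlap either, and the fall to 76.2% corresponded to a log2 fold change of -0.39 (SE 0.0298, edgeR adjusted p = 3.84e-07), with -0.41, -0.34 and -0.43 in the Sets.

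TUBA1A, the main α-tubulin of developing neurons, and TUBA4A, an isotype of muscle, platelets and the adult nervous system, were minor here. TUBA1A (chr12:49578469-49582863, minus strand, 4 exons) was at 87.8, 84.8 and 94.0 CPM in siControl and at 93.4, 98.7 and 95.3 CPM in siNONO. The groups overlapped, since siControl Set 3 was above siNONO Set 1. TUBA1A was called higher with a log2 fold change of 0.11 (SE 0.0413, edgeR adjusted p = 0.0450), and the single Sets gave 0.09, 0.22 and 0.02. The call did not hold without siControl Set 1 (edgeR adjusted p = 0.0752), siControl Set 2 (0.333), siNONO Set 1 (0.0938) or siNONO Set 2 (0.421), nor without the Set as a block (0.153), and in TPM the means were 89.4 ± 7.37 and 89.6 ± 2.01 (SD, n = 3). TUBA4A (chr2:220114432-220142624, minus strand, 4 exons) was at 49.1, 47.9 and 55.7 CPM in siControl and at 45.9, 48.9 and 51.1 CPM in siNONO. Its groups overlapped as well, and the log2 fold change of -0.06 (SE 0.0460, edgeR adjusted p = 0.283) did not pass.

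Of the β-tubulins, TUBB and TUBB4B are the broadly used isotypes and TUBB3 is the isotype best known from neurons and from tumours. TUBB (chr6:30685212-30693315, plus strand, 4 exons) was at 1623, 1736 and 1760 CPM in siControl and at 1289, 1377 and 1435 CPM in siNONO. The highest siNONO value was below the lowest siControl value, and the log2 fold change was -0.32 (SE 0.0260, edgeR adjusted p = 6.85e-07), or 80.1% of siControl, with -0.33, -0.33 and -0.29 in the Sets. TUBB4B (chr9:140135739-140138159, plus strand, 4 exons) was at 448, 473 and 478 CPM in siControl and at 296, 329 and 342 CPM in siNONO. It was the β-tubulin gene with the lowest log2 fold change, at -0.53 (SE 0.0309, edgeR adjusted p = 3.84e-08), or 69.1% of siControl, and its Sets gave -0.60, -0.52 and -0.48 without overlap of the groups. TUBB3 (chr16:89987800-90005169, plus strand, 4 exons) was at 117, 118 and 123 CPM in siControl and at 92.9, 97.0 and 109 CPM in siNONO. It was also lower in every siNONO library, by a log2 fold change of -0.27 (SE 0.0374, edgeR adjusted p = 8.07e-05).

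The less abundant β-tubulin genes went the other way or did not pass. TUBB2A, an isotype prominent in brain, lies on the short arm of chromosome 6 beside its near copy TUBB2B. TUBB2A (chr6:3153731-3157778, minus strand, 4 exons) was at 36.5, 35.1 and 32.7 CPM in siControl and at 45.1, 48.4 and 51.3 CPM in siNONO. Each siNONO library was above all siControl libraries, and the mean rose from 34.8 ± 1.92 to 48.3 ± 3.10 CPM (SD, n = 3). The log2 fold change was 0.47 (SE 0.0602, edgeR adjusted p = 3.84e-05), or 138% of siControl, and ran from 0.31 in Set 1 to 0.65 in Set 3. Of the 4 neuronal markers tested, MAP2 and SYT1 rose (log2 fold changes 0.36 and 0.10, edgeR adjusted p = 3.73e-04 and 0.0187), RBFOX3 fell (-0.94, edgeR adjusted p = 0.0298), SNAP25 was at -0.21 and did not pass, and the median was -0.05. Their summed level, most of it SYT1, was higher in siNONO, and the part of this in the rise of TUBB2A was not tested.

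TUBB6, a widely expressed minor isotype, was at 67.2, 70.1 and 74.2 CPM in siControl and at 74.5, 77.5 and 81.5 CPM in siNONO (chr18:12307668-12344319, plus strand, 4 exons). The highest siControl library lay only just below the lowest siNONO library, but the difference within a Set was 0.15, 0.14 and 0.14 on the log2 scale. TUBB6 was called higher with 0.14 (SE 0.0360, edgeR adjusted p = 0.00556), and not without the Set as a block (adjusted p = 0.0775) or with DESeq2 (adjusted p = 0.0614), and in TPM its means were 68.8 ± 4.05 and 69.7 ± 2.29 (SD, n = 3). TUBB2B (chr6:3223558-3231964, minus strand, 4 exons), whose protein is needed in the developing brain, had only 35.6 to 61.5 estimated counts in a library. It was at 1.59, 1.89 and 1.62 CPM in siControl and at 2.15, 1.63 and 1.93 CPM in siNONO. The groups overlapped, and the log2 fold change of 0.16 (SE 0.220, edgeR adjusted p = 0.590) was near -0.0019 without siNONO Set 1, so a change of TUBB2B was not detectable at this depth.

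**Figure D2:**
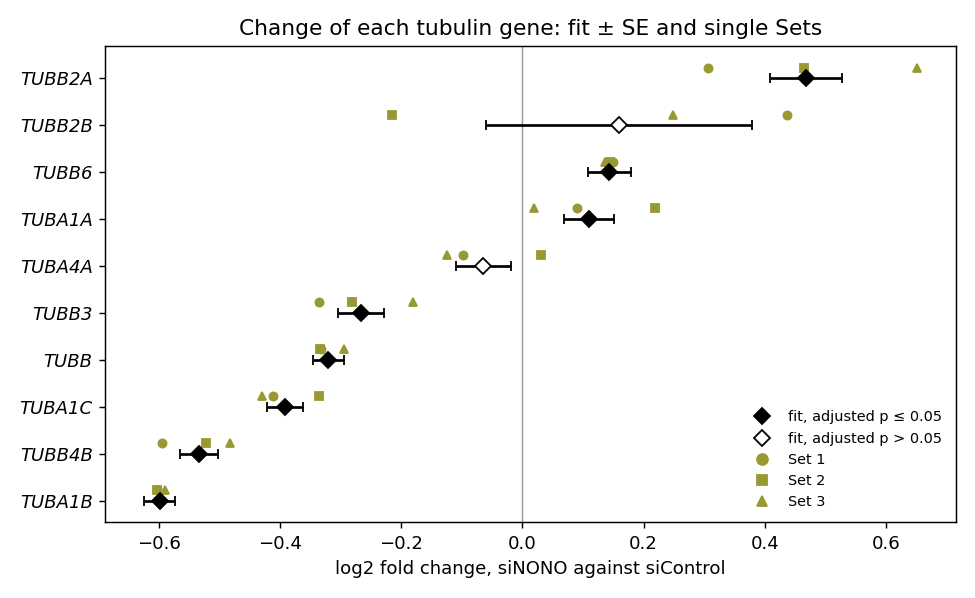
Log2 fold change of each tubulin gene, siNONO against siControl. Diamonds are the edgeR fit with its SE, filled where the adjusted p was at most 0.05, and small symbols are the 3 Sets. TUBA1B, TUBB4B, TUBA1C, TUBB and TUBB3 are below 0 in all 3 Sets, TUBB2A, TUBB6 and TUBA1A are above 0 in all 3, and TUBA4A and TUBB2B have Sets on both sides.

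Levels of different genes can be set side by side in TPM, which is scaled for transcript length. In siControl the order was TUBA1B at 1495 ± 104 TPM, TUBB at 1039 ± 39.8 TPM, TUBA1C at 760 ± 50.1 TPM and TUBB4B at 480 ± 14.5 TPM (SD, n = 3), and no library of one of these overlapped any library of the next. TUBB3 followed at 120 ± 3.59 TPM, again apart from its neighbours. TUBA1A at 89.4 ± 7.37 TPM, TUBA4A at 79.1 ± 9.70 TPM and TUBB6 at 68.8 ± 4.05 TPM overlapped, each with the next. TUBB2A was below them at 35.2 ± 1.95 TPM, and TUBB2B stood last at 1.39 ± 0.110 TPM.

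The 4 leading genes kept that order in siNONO, at 914 ± 53.7 TPM for TUBA1B, 782 ± 38.7 TPM for TUBB, 547 ± 38.5 TPM for TUBA1C and 312 ± 20.1 TPM for TUBB4B (SD, n = 3). Below them, TUBB3 at 92.8 ± 8.05 TPM now overlapped TUBA1A at 89.6 ± 2.01 TPM. Among all listed genes, TUBA1B went from rank 81 to rank 136 by mean TPM, TUBB from 125 to 163 and TUBB4B from 217 to 316, while TUBB2A went from 4247 to 3109. Over the 10 genes, a higher siControl TPM went with a lower log2 fold change, with a Spearman rho of -0.927 and a Pearson r of -0.763 on log2 TPM. Both coefficients are descriptions over 10 genes that share the same 6 libraries.

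Counts summed over a family do not depend on how reads are divided among the members of that sum, although TPM sums do in part, since member lengths differ, and relatives outside the sum may still share reads. With the 4 α-tubulin genes counted as 1, the level was 2292, 2365 and 2614 TPM in siControl and 1528, 1615 and 1715 TPM in siNONO. The counts summed in this way fell to 71.0% (log2 fold change -0.50, SE 0.0255, edgeR adjusted p = 1.28e-08), with -0.50, -0.48 and -0.51 in the Sets. The 6 β-tubulin genes summed to 1691, 1736 and 1807 TPM in siControl and to 1242, 1289 and 1381 TPM in siNONO, and their summed counts fell to 79.9% (log2 fold change -0.32, SE 0.0261, edgeR adjusted p = 6.14e-07), with -0.35, -0.33 and -0.29 in the Sets. Neither family overlapped between the groups.

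The α sum fell further than the β sum in each Set. The ratio of α- to β-tubulin TPM was 1.36, 1.36 and 1.45 in siControl and 1.23, 1.25 and 1.24 in siNONO (exact two-sided permutation p = 0.1, the smallest that 3 against 3 libraries can give). Together the 10 genes made up 0.398, 0.410 and 0.442% of all TPM in siControl and 0.277, 0.290 and 0.310% in siNONO. The groups did not overlap, and the summed level was 4168 ± 227 TPM against 2923 ± 164 TPM (SD, n = 3).

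The composition of each family shifted as well. TUBA1B made up 61.3, 62.2 and 61.6% of α-tubulin TPM in siControl and 56.4, 56.5 and 56.5% in siNONO, a difference of -5.22 percentage points. TUBA1C went from 31.4 ± 0.180% to 33.8 ± 0.484%, TUBA1A from 3.69 ± 0.185% to 5.54 ± 0.356% and TUBA4A from 3.26 ± 0.207% to 4.22 ± 0.204% (SD, n = 3). The groups did not overlap for any of the 4 genes.

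The β-tubulin shares are of the 6 genes summed. They leave out TUBB4A, another β-tubulin gene, with mean TPM of 41.2 in siControl and 46.1 in siNONO. Among the 6, TUBB made up 59.1, 59.8 and 59.7% in siControl and 60.3, 60.0 and 59.7% in siNONO, and the groups overlapped. TUBB4B made up 27.6, 27.6 and 27.4% in siControl and 23.5, 24.3 and 24.1% in siNONO, a difference of -3.56 percentage points. TUBB2A went from 2.02 ± 0.178% to 3.50 ± 0.0149% and TUBB6 from 3.94 ± 0.111% to 5.35 ± 0.152%, both without overlap, TUBB2B was at most 0.135% in any library, and TUBB3 overlapped at 6.90 ± 0.174% and 7.11 ± 0.261% (SD, n = 3). By exact two-sided permutation tests the 8 genes without overlap reached p = 0.1, the smallest possible with 3 against 3, which is 0.125 after adjustment over 10 shares, and TUBB and TUBB3 had p = 0.3 and p = 0.4. The shares of a family always add up to the whole, so lower shares of TUBA1B and TUBB4B raise those of the others. The 8 genes are therefore not separate results. TUBA4A and TUBA1C thus gained in share while TUBA4A did not pass and TUBA1C fell in level. TUBA1A and TUBB6 gained in share with mean TPM of 89.4 and 68.8 in siControl and 89.6 and 69.7 in siNONO.

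**Figure D3:**
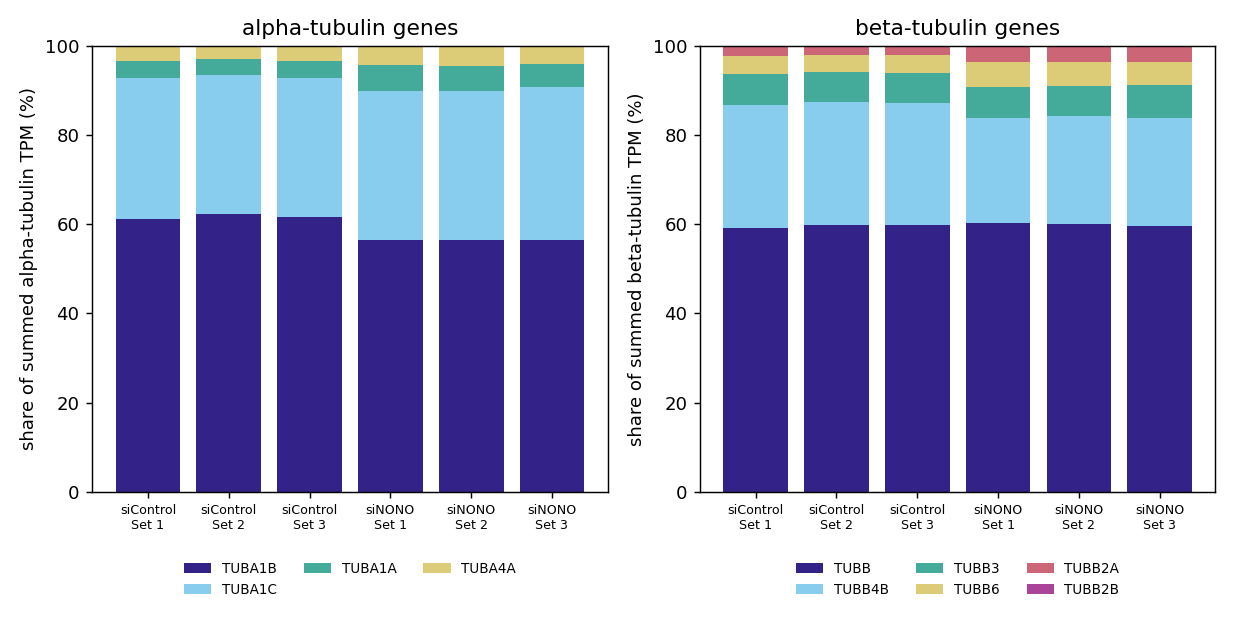
Share of each gene in the summed TPM of the 4 α-tubulin genes (left) and of the 6 β-tubulin genes (right) in each library, in percent. The TUBA1B segment is 61.3 to 62.2% in the 3 siControl libraries and 56.4 to 56.5% in the 3 siNONO libraries, and TUBB4B is 27.4 to 27.6% and 23.5 to 24.3%, while the TUBB segment overlaps between the groups.

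The average length of the transcripts assigned to a gene, weighted by their abundance, changes when the mix of its isoforms changes. It was longer in every siNONO library than in any siControl library for 3 of the 8 tubulin genes whose length varied by at least 1 base, beside 6.58% of the 14066 such genes. Over all genes only lengths longer in siNONO were counted, and shorter ones were not. TUBB6 went from 1646 ± 10.6 to 1682 ± 18.0 bases, TUBB3 from 1600 ± 7.34 to 1624 ± 5.48 bases and TUBB2A from 1592 ± 5.36 to 1604 ± 5.49 bases (SD, n = 3, exact two-sided permutation p = 0.1 for each, the smallest possible). The lengths of TUBA1A, TUBA1B, TUBA1C, TUBA4A, TUBB, TUBB2B and TUBB4B overlapped between the groups, and for TUBB the mean was 2517 bases in both.

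Because the isotypes are so alike, the split of reads between them is less certain than their sums. Coding sequences were 84.4 to 97.2% identical between α-tubulin genes and 80.9 to 98.2% identical between β-tubulin genes, with the highest value for TUBB2A and TUBB2B, but only 51.9 to 54.0% identical between the families. Of all windows of 50 bases in the canonical transcript, 56.6% in TUBA1B, 50.5% in TUBA1A and 26.7% in TUBA1C were also present in another of the 10 genes. The share was 59.5% in TUBB2A and 49.8% in TUBB2B, and 9.0% or less in TUBB, TUBB3, TUBB4B, TUBB6 and TUBA4A. Counting any other annotated gene, on either strand, it was 92.8% in TUBB3, 87.1% in TUBA1B, 34.5% in TUBA4A, 32.7% in TUBB and 1.1% in TUBB6. TUBA4A shared most windows with STK16 and TUBA4B, and no sum with these was run. TUBA1A, TUBA1B and TUBA1C counted as 1 gene had a log2 fold change of -0.51 (edgeR adjusted p = 1.09e-08), and TUBA1A, which holds a small part of that sum, cannot be given a direction from it. TUBB2A and TUBB2B counted as 1 gene rose by 0.46 (edgeR adjusted p = 3.48e-05), with TUBB2A holding most of the counts. Tubulin pseudogenes took 0.283 to 0.506% as many counts as the 10 genes in a library.

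Some members also overlap other annotated genes. TUBA1B-AS1, a long noncoding RNA gene on the opposite strand, was at 1170, 1346 and 1688 estimated counts in siControl and at 463 and 1052 in siNONO Sets 1 and 2. In siNONO Set 3 it had only 0.293% as many counts as TUBA1B, beside 1.77 to 4.93% in the other libraries. The groups overlapped in CPM, with siNONO Set 2 at 37.8 above siControl Set 1 at 35.5, and the single Sets gave log2 fold changes of -1.13, -0.38 and -4.66, so that Set 3 carried most of the difference. Whether the counting used the strand is not given in the sources used here, so reads of such a pair may not be told apart. Counted together, TUBA1B and TUBA1B-AS1 had a log2 fold change of -0.62. TUBB3 shares most of its transcript with a readthrough gene, ENSG00000198211, that had at most 2.19% of its counts, and the pair gave -0.27. TUBA1C and TUBB, each summed with an overlapping antisense gene, gave -0.38 and -0.32, and all 4 calls held.

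The remaining tubulin genes are used in particular tissues or outside the microtubule wall. Of 12 listed, 8 were tested, 2 rose and 2 fell, near the 23.2 and 23.4% of all genes tested, with a median log2 fold change of -0.11. TUBB4A, the β-tubulin of oligodendrocytes and neurons, was at 54.6, 56.3 and 60.5 CPM in siControl and at 63.9, 69.9 and 71.2 CPM in siNONO. It rose without overlap of the groups in CPM, by 0.26 (SE 0.0398, edgeR adjusted p = 1.74e-04). In TPM the groups overlapped, with siNONO Set 1 at 41.9 below siControl Set 3 at 43.9. TUBB4A too is a close relative of the other β-tubulin genes and may share reads with them. TUBE1, the ε-tubulin of centrioles, rose by 0.33 (SE 0.0567, edgeR adjusted p = 3.86e-04), from 20.8 ± 0.387 to 26.2 ± 1.28 CPM (SD, n = 3). TUBD1, the δ-tubulin of centrioles, had a log2 fold change of -0.10 and did not pass.

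TUBG1 and TUBG2 encode γ-tubulin, which starts new microtubules. TUBG1 was at 102, 106 and 115 CPM in siControl and at 94.5, 100.2 and 103 CPM in siNONO, and it fell by 0.12 on the log2 scale (edgeR adjusted p = 0.0121) although the groups overlapped. TUBG2 fell by 0.21 on the same scale (edgeR adjusted p = 0.0179). TUBG1 and TUBG2 are near copies, so their split is uncertain too. TUBA8, TUBAL3 and TUBB1 did not pass and had at most 35.6 estimated counts in a library. TUBA3D, TUBA3E and TUBB8 had at most 10 and were not tested, and TUBA3C was listed at 0.

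γ-Tubulin works in a ring complex with the TUBGCP proteins, and MZT1, NEDD1 and CDK5RAP2 attach or activate it. Of these 12 genes, TUBG1 and TUBG2 included, 7 fell and 1 rose, beside 23.4 and 23.2% of all genes tested, and the median log2 fold change was -0.12. CDK5RAP2, which binds the complex at the centrosome, was at 76.6, 80.3 and 77.2 CPM in siControl and at 53.4, 54.8 and 54.6 CPM in siNONO (log2 fold change -0.52, SE 0.0381, edgeR adjusted p = 2.60e-07). MZT1, a small subunit of the ring, fell by 0.59 on the log2 scale (edgeR adjusted p = 4.33e-05), and TUBGCP3, a core subunit, fell by 0.41 (edgeR adjusted p = 6.00e-06). TUBGCP2, the partner of TUBGCP3 in the small γ-tubulin complex, moved the other way, from 39.5 ± 1.76 to 52.2 ± 3.56 CPM (SD, n = 3, log2 fold change 0.40, edgeR adjusted p = 9.96e-06).

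New tubulin chains are handed by prefoldin to the CCT chaperonin and then assembled into dimers by the tubulin folding cofactors. Of the 8 CCT subunits, 6 rose and 1 fell, beside 23.2 and 23.4% of all genes tested, and the median log2 fold change was 0.11. CCT8 was at 331, 341 and 335 CPM in siControl and at 394, 410 and 388 CPM in siNONO, with no overlap (log2 fold change 0.24, SE 0.0285, edgeR adjusted p = 1.74e-05). CCT4 rose by 0.13 and CCT3 by 0.12 (edgeR adjusted p = 0.00416 and 0.00476), and CCT7 fell by 0.09 on the log2 scale (edgeR adjusted p = 0.0145). The CCT7 groups overlapped in CPM, with siNONO Set 3 at 432 above siControl Set 1 at 430. In TPM the siControl and siNONO means were 292 and 324 for CCT8, 541 and 555 for CCT3 and 231 and 238 for CCT4. The others called higher were TCP1 at 376 and 388, CCT2 at 318 and 320 and CCT6A at 315 and 308. Of the subunits called higher, only CCT8 had groups apart in TPM, and CCT6A had a lower mean there. CCT7, and CCT5, which did not pass, were also apart in TPM, and both were lower in siNONO. Their siControl and siNONO means were 399 and 354 for CCT7 and 478 and 447 for CCT5. By counts, the chaperonin subunits that rose did so by small amounts, in the same libraries in which the summed tubulins fell. The alternative fits were not run for these subunits.

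In prefoldin and the cofactors the share of genes that passed was near the 46.6% of all genes tested. Of 6 prefoldin subunits 2 fell and 1 rose (median 0.0058), with PFDN4 at -0.45, VBP1 at -0.21 and PFDN6 at 0.30 (edgeR adjusted p = 1.32e-04, 6.81e-04 and 2.41e-04). Of 8 cofactor genes 2 fell and 1 rose (median -0.02), with ARL2BP at -0.46, ARL2 at -0.25 and TBCB at 0.33 (edgeR adjusted p = 1.06e-05, 0.00140 and 7.17e-05). ARL2 is a small GTPase that acts with the cofactors on the dimer, ARL2BP binds it, and TBCB delivers α-tubulin. TBCA, TBCC, TBCD and TBCE lay between -0.09 and 0.04 and did not pass.

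In the mRNA feedback, TTC5 recognises the nascent tubulin and SCAPER brings in the CCR4-NOT deadenylase, of which CNOT1 is the scaffold and CNOT11 the docking subunit. TTC5, CNOT1 and CNOT11 were called lower, with log2 fold changes of -0.20, -0.15 and -0.12 (edgeR adjusted p = 0.0282, 0.00125 and 0.0146), and SCAPER, at -0.09, did not pass. TTC5 was at 16.9, 19.0 and 17.2 CPM in siControl and at 16.0, 15.1 and 14.95 CPM in siNONO. The groups were apart, though by little. The list has only 4 genes, with a median of -0.14, and 23.4% of all genes tested were lower.

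Of 17 tested genes for enzymes that add or remove tubulin modifications, 4 fell and 3 rose (median -0.03), a share in either direction no higher than the 46.6% of all genes tested. VASH2, a carboxypeptidase that removes the last tyrosine of α-tubulin, was at 20.5, 18.7 and 19.7 CPM in siControl and at 12.3, 12.2 and 9.87 CPM in siNONO (log2 fold change -0.78, SE 0.0785, edgeR adjusted p = 4.74e-06). TTLL7, a ligase that adds glutamates to β-tubulin, fell by 0.61 on the log2 scale (edgeR adjusted p = 4.05e-06), and AGTPBP1, a carboxypeptidase that trims glutamates, fell by 0.30 (edgeR adjusted p = 3.99e-04). TTLL12, a member of the tubulin ligase family, rose from 141 ± 9.85 to 193 ± 11.6 CPM (SD, n = 3, log2 fold change 0.45, edgeR adjusted p = 1.31e-07). TTL, the ligase that restores the tyrosine, was at 0.02, and VASH1 at -0.03, and neither passed. AGBL2 and AGBL4 were listed at 0.

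Of 22 tested genes for proteins that bind microtubules or free dimers, 10 fell and 3 rose, beside 23.4 and 23.2% of all genes tested. The median log2 fold change was -0.06. The 13 that passed in either direction compare with 46.6% of all genes tested. STMN1 (stathmin), which holds free tubulin dimers, was at 358, 362 and 324 CPM in siControl and at 224, 227 and 211 CPM in siNONO. The groups were far apart, with a log2 fold change of -0.65 (SE 0.0297, edgeR adjusted p = 4.12e-09). MAP1A and MAP1B, lattice-binding proteins best known from neurons, fell by 0.67 and 0.60 on the log2 scale (edgeR adjusted p = 3.49e-06 and 9.11e-08), and STMN3, a relative of stathmin, rose by 0.24 (edgeR adjusted p = 1.13e-04). FIGN was listed at 0.

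Among 6582 genes whose log2 CPM averaged 5 or more, tubulins left out, the 5 whose log2 CPM ran most like that of TUBA1B over the 6 libraries were GAS8, POMGNT1, GAPDH, NCAPD2 and FEN1, with Pearson r from 0.999 to 0.9997. Their own log2 fold changes were -0.48, -0.37, -0.29, -0.64 and -0.46. For TUBB the 5 were PSMD4, ERF, LIG1, CDCA4 and BAP1, with r from 0.996 to 0.998 and log2 fold changes of -0.35, -0.28, -0.50, -0.40 and -0.38. None of the 5 was common to the pair of lists. The 6 libraries form 2 groups, and r is given as a description.

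RefSeq promoters, 300 bases around each start on GRCh38.p14, were available for all 10 genes, 15 promoters in all. CCAAT, the core of the site of the factor NF-Y, was present on either strand in 9 of the 15, for TUBA1A, TUBA1C, TUBB, TUBB2B, TUBB3, TUBB4B and TUBB6, beside 34.6% of 35116 promoters. TTTGAA, the core of an element of cell-cycle genes, was in 4 of the 15, all of them promoters of TUBA1C and TUBB4B, beside 15.2% of all promoters. TATAAA was in 1 of the 15, a promoter of TUBB2A, beside 11.5%. Of the genes with CCAAT in the window, TUBA1C, TUBB, TUBB3 and TUBB4B fell and TUBB2B passed in neither direction. TUBA1A and TUBB6, also with CCAAT, were called higher, but both calls were lost without the Set as a block and with DESeq2. TUBA1B, TUBA4A and TUBB2A had no CCAAT in the window.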

How the data were processed

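The authors trimmed the reads, aligned them with STAR to GENCODE transcripts on GRCh37 and ran RSEM (version 1.3.1), and deposited for each library an estimated count, TPM, FPKM and a mean and effective transcript length per gene. The deposited expected counts are not normalized, the deposited TPM and FPKM values are scaled for length and depth, and FPKM was not used. The strand setting is not given in the sources used here.

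Counts were rounded and tested with edgeR (version 4.0.16, quasi-likelihood F-test in its older form, TMM, filterByExpr) with the Set as a block, which the labels number. Same-numbered libraries deviated together (r = 0.605, 0.320 and 0.623), although Sets 1 and 2 also did across numbers (0.209 and 0.256). Replicates differed by more than sampling noise, and Set 3 stood furthest apart. Chi-squared per degree of freedom between Sets 1 and 2 was 3.01 in siControl and 2.82 in siNONO. For Set 3 against Sets 1 and 2 it was 5.86 and 5.25 in siControl and 9.86 and 9.03 in siNONO. The script was tested on simulated counts. Positions, coding starts and shared windows came from GENCODE 44 on GRCh37, a later release than the authors' on the same build. PECAM1, a planned marker, was not analysed here.

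The members, gene lists and tests were chosen with earlier results of these data known. Named genes are NONO, all tubulins with a count, the lowest and highest called gene of each list with up to 2 more by adjusted p, and the 5 genes most like TUBA1B and TUBB. Others that did not pass, and TUBA1B-AS1, ENSG00000198211, TCP1, CCT2 and CCT6A, were named after their values were seen. Alternatives were other scalings and filters, no block, the newer edgeR form, DESeq2 (version 1.42.0), limma (version 3.58.1) on log2(TPM + 1) and log2(TPM + 0.1), shares of counts, summed near copies, each library left out, and, added after seeing the data, sums with overlapping genes.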

Additional observations from a re-analysis of the deposited data

How the results depend on the processing

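Of 204 log2 fold changes of NONO, single tubulin genes and both family sums under the alternatives, 188 had the direction and the call of the reported value. The count of 5 lower genes and the falls of both family sums (α -0.58 to -0.48, β -0.42 to -0.31) held under all 15 alternatives. The count of 3 higher genes became 1 without the Set as a replicate block, 1 with DESeq2, 1 on log2(TPM + 1) and 1 on log2(TPM + 0.1), with TUBB2A the gene left, was 2 with library size alone, where TUBA1A was lost, and was 2 to 3 with a library left out. The calls lost were TUBA1A and TUBB6, and the cause was not tested. The median of all genes was -0.07 on log2(TPM + 1) and -0.09 on log2(TPM + 0.1), and TUBA1A and TUBB6 were at 0.0060 and 0.02 there. No other call of a tubulin gene changed without the block, although calls over all genes went from 7924 to 6164, and to 5227 with DESeq2. TUBA1A reversed to -0.51 when summed with TUBA1B and TUBA1C, as most of that sum is TUBA1B. TUBB2B ran from -0.0019 to 0.36 with a library left out and was called, at 0.46, when summed with TUBB2A. As shares of counts in place of TPM, the differences were -4.79 percentage points for TUBA1B, 2.15 for TUBA1A, 1.81 for TUBA1C, -2.62 for TUBB4B, 1.07 for TUBB2A and 1.12 for TUBB6, all in the same direction. Depth limits TUBB2B, TUBA8, TUBAL3, TUBB1 and the tubulin genes with too few counts to test.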
